A study of Mus musculus with 6 samples.

Results

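Messenger RNA of 6 transcription regulators of male germ cells was compared between Alkbh1-/- and wild-type (WT) mice in pachytene spermatocytes, testis cells in which paired chromosomes recombine during meiotic prophase. The genes Mybl1, Tcfl5, Brdt, Crem, Rfx2 and Sox30 were taken by symbol, and all 6 were found among the 21310 Ensembl genes of the deposited count table. There was 1 mRNA library per genotype. The Alkbh1-/- line carries a targeted deletion of exon 6 and, per the labels, heterozygotes were crossed back onto a C57/BL6 background. WT has no altered allele named in the labels. The labels name no age, number of animals or purity of the cells. Polyadenylated RNA was captured from RNA over 200 nt, with an input of 1.6 µg for Alkbh1-/- and 1 µg for WT, and read as 75 bp paired ends. The small RNA libraries of Alkbh1-/-, of a Tzfp gene trap (TzfpGTi/GTi) and of WT were not used here.

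Each of these regulators belongs to a phase of sperm formation. A-MYB, the product of Mybl1, turns on many meiotic genes at pachytene and the loci from which pachytene piRNAs are made, and TCFL5 is a basic helix-loop-helix factor of the same stage. BRDT is the testis-specific member of the BET family, whose bromodomains bind acetylated histones. RFX2, CREM and SOX30 are needed in the mouse for gene expression and development of the haploid spermatids that follow meiosis.

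The Alkbh1-/- library held 10229260 counts and the WT library 8222671. Levels are given in CPM, counts relative to the TMM-scaled library total. TMM assumes that most genes are alike in both libraries. Genes with at least 5 CPM in at least 1 library were called measured, which left 12189 genes and all 6 regulators. Ratios are Alkbh1-/- over WT, with exact (Clopper-Pearson) 95% intervals that cover counting error only. The intervals treat every read as independent, so PCR copies of 1 molecule, where counted as separate reads, would make them too narrow. Log2 values were taken after adding 1 CPM to both levels, which understates differences of low genes. One library per genotype allows no test and no replicate check, so the genotype cannot be told apart from the preparation of the cells. Alkbh1 itself had 209 counts (20.2 CPM) in Alkbh1-/- and 171 counts (21.0 CPM) in WT. That is a ratio of 0.962 (interval 0.782 to 1.18), and a gene-level count says nothing on whether 1 exon is missing.

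All 6 regulators were within 1.16-fold of WT. None was past 2-fold, as 4.5% of the measured genes were (1.8% higher and 2.71% lower). None was past 1.5-fold either, against 16.8% of the measured genes, of which 8.06% were higher and 8.79% lower. Among the 8046 genes with at least 20 CPM, a floor that all 6 also passed, 12.8% were past 1.5-fold. Their log2 ratios ran between -0.12 and 0.20, with a median of 0.03, beside a median of -0.02 and quartiles of -0.23 and 0.21 over all measured genes. The interval held 1 for 3 regulators (Mybl1, Brdt and Rfx2), was above 1 for Crem and Sox30, and was below 1 for Tcfl5. An interval without 1 was common, found in 50.4% of measured genes (23.7% above 1 and 26.8% below), so 3 of 6 is near the background.

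**Figure D1:**
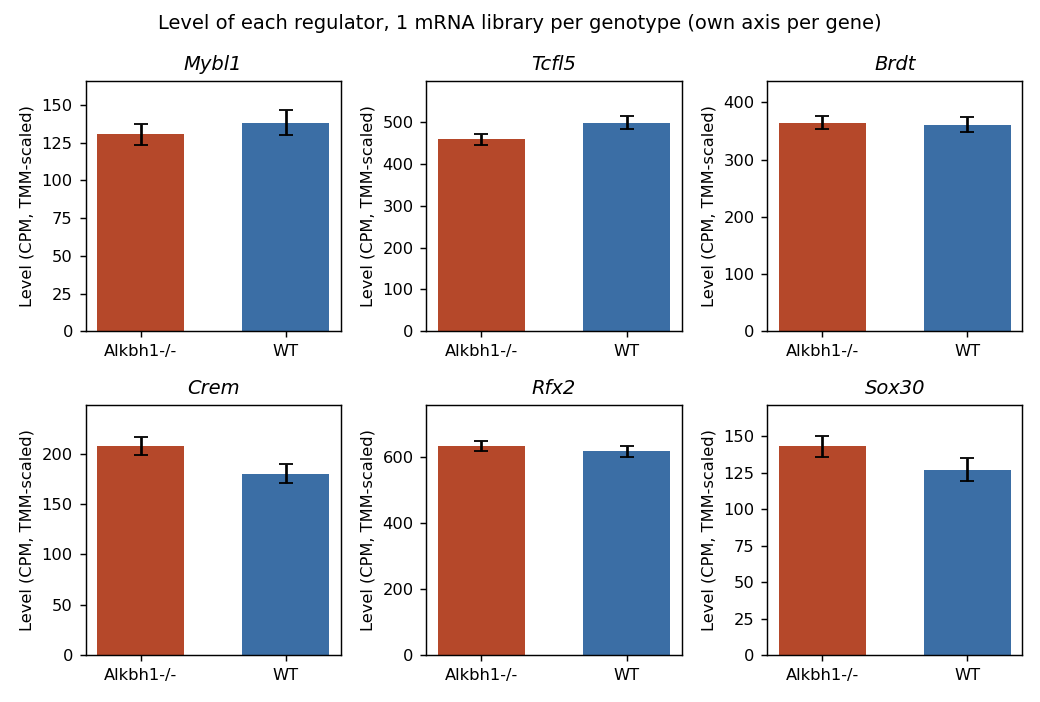
Level of each regulator in CPM (TMM-scaled) in the Alkbh1-/- library (left bar) and the WT library (right bar), each gene on its own axis from 0; error bars are exact 95% Poisson intervals, which cover counting error only. The bars of Brdt, Rfx2 and Mybl1 have overlapping error bars, Crem and Sox30 stand higher in Alkbh1-/- and Tcfl5 stands lower.

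Among the regulators of the pachytene stage, Mybl1 (ENSMUSG00000025912) had 1349 counts in Alkbh1-/- and 1125 in WT. These were 130 CPM (interval 124 to 138) in Alkbh1-/- and 138 CPM (130 to 147) in WT. Its ratio was 0.944 (0.871 to 1.02), which reaches from 12.9% below WT to 2.22% above it. Tcfl5 (ENSMUSG00000038932) had 4743 counts (459 CPM) in Alkbh1-/- and 4056 counts (499 CPM) in WT. Its ratio of 0.920 (0.882 to 0.960) was the lowest of the 6, and 36.4% of measured genes had a lower log2 ratio. Tcfl5 overlaps the collagen gene Col9a3 in the RefSeq annotation of GRCm38, and no source used here says whether counting used strand. Col9a3 had 58 counts in Alkbh1-/- and 60 in WT, few beside those of Tcfl5.

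Brdt (ENSMUSG00000029279) had 3767 counts in Alkbh1-/- and 2931 in WT, or 364 CPM in Alkbh1-/- and 360 CPM in WT. The ratio was 1.01 (0.963 to 1.06), the nearest to 1 of the 6. Rfx2 (ENSMUSG00000024206) had 6548 counts (633 CPM) in Alkbh1-/- and 5028 counts (618 CPM) in WT. With the most reads of the 6 it also had the tightest interval, 0.988 to 1.06 around a ratio of 1.02. RefSeq places the non-coding RNA Gm17202 and the pseudogene Gm8152 over Brdt, and Gm41604 over Rfx2, and none of these was matched in the count table.

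Crem and Sox30 had the highest ratios of the 6, while Rfx2, which is also needed in spermatids, was at 1.02 (0.988 to 1.06). Crem (ENSMUSG00000063889) had 2141 counts (207 CPM) in Alkbh1-/- and 1463 counts (180 CPM) in WT. Its ratio was 1.15 (1.08 to 1.23), and 74.1% of measured genes had a lower log2 ratio. Crem makes activator forms and the repressor ICER from the same gene, and a count per gene does not separate them. The non-coding RNA Gm6225 overlaps Crem in RefSeq and was likewise not matched in the count table. Sox30 (ENSMUSG00000040489), an HMG-box factor, had 1480 counts (143 CPM) in Alkbh1-/- and 1033 counts (127 CPM) in WT. Its ratio was 1.13 (1.04 to 1.22), with 71.4% of measured genes below it in log2 ratio. Both log2 ratios, 0.20 for Crem and 0.17 for Sox30, lay below the upper quartile of all measured genes (0.21).

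Which side of 1 an interval fell on depended on the scaling for 4 of the 6. With library totals or upper-quartile scaling Rfx2 was also above 1, at 1.05 (1.01 to 1.09) and 1.04 (1.00 to 1.08). Scaled to the summed counts of meiotic prophase genes, Mybl1 (0.888, 0.820 to 0.962) and Brdt (0.952, 0.907 to 0.999) were below 1 and the interval of Sox30 held 1 (1.06, 0.980 to 1.15). Under all 5 scalings Crem stayed above 1 and Tcfl5 below it.

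**Figure D2:**
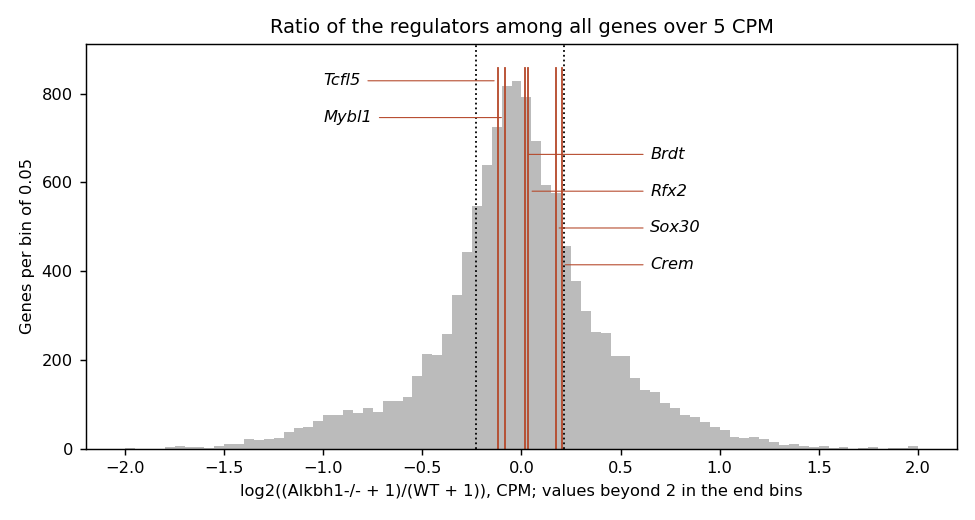
Number of measured genes per bin of 0.05 of the log2 ratio of CPM plus 1, Alkbh1-/- over WT; solid lines mark the 6 regulators and dotted lines the quartiles of all 12189 genes, -0.23 and 0.21. All 6 regulators lie between the quartiles, with Tcfl5 and Mybl1 left of 0 and Sox30 and Crem farthest right.

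The regulators were then set against each other within a library, a ratio that no library scaling can move. Of 15 pairs, 10 had an exact conditional 95% interval of the ratio of ratios without 1. The 15 pairs reuse the counts of 6 genes, and the share over pairs of other genes was not computed. Since 50.4% of single measured genes had an interval without 1, the count of pairs is not read as a trait of these regulators. Crem reads per Tcfl5 read were 1.25-fold higher in Alkbh1-/- (1.16 to 1.35), and Crem reads per Mybl1 read were 1.22-fold higher (1.10 to 1.36). Sox30 per Tcfl5 was 1.23-fold higher (1.12 to 1.34) and Sox30 per Mybl1 1.19-fold higher (1.07 to 1.34). Crem and Sox30 were also higher against Brdt, by 1.14-fold (1.05 to 1.24) and 1.11-fold (1.01 to 1.22). Against Rfx2 they were higher by 1.12-fold (1.04 to 1.21) and 1.10-fold (1.01 to 1.20). Crem against Sox30 was 1.02 (0.920 to 1.13), a pair whose interval held 1, as did that of Mybl1 against Tcfl5 (1.03, 0.937 to 1.12). Every pair of Crem or Sox30 with one of the other 4 had an interval above 1, which restates that these genes had the highest ratios. These intervals are for reads of these 2 libraries and leave out the spread between animals.

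**Figure D3:**
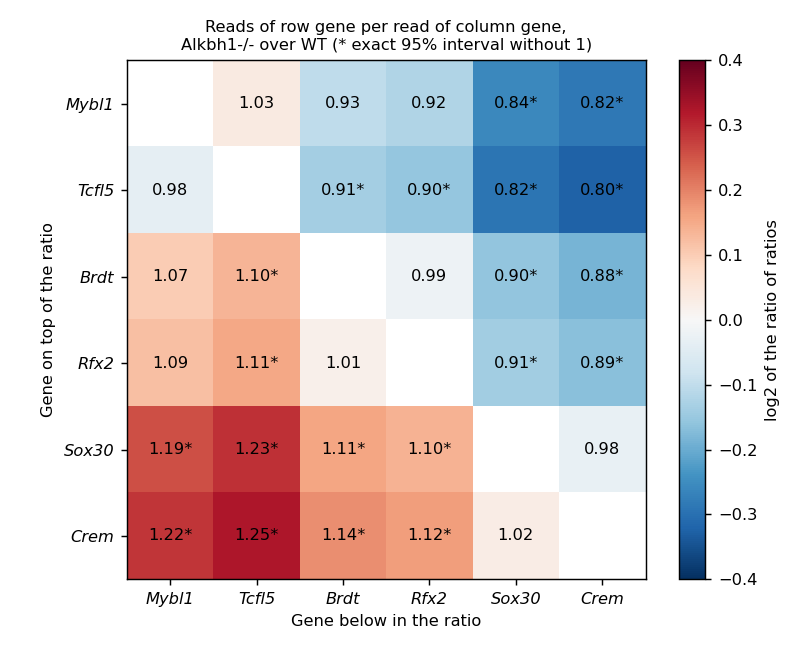
Ratio of ratios for each pair: reads of the row gene per read of the column gene, Alkbh1-/- over WT, with colour on the log2 scale and a star where the exact 95% interval leaves out 1. The rows of Crem and Sox30 hold values of 1.10 to 1.25 with stars against the other 4 genes.

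The promoters of the regulators are shown because A-MYB, TCFL5, RFX2, CREM and SOX30 act by binding DNA, and the letters show where their known motifs occur in these genes. RefSeq promoters (GRCm38.p6, 250 bases before to 50 after the start) were matched for Tcfl5, Brdt, Sox30 and Rfx2. Both strands were searched for the core of the MYB motif, spelled AACGG, and for the RFX motif in the form GTTGCC, which is a piece of the longer element. Windows of up to 30 bases are written 5′ to 3′ on the gene's strand with the match in capitals, and a MYB core on the opposite strand reads CCGTT there.
Tcfl5, bases -117 to -113 from the start, chr2:180642792-180642820, minus strand: gggtcggcgggtAACGGaggggcgtggcc
Tcfl5, bases -83 to -79, chr2:180642758-180642786, minus strand: ggggtggggttaCCGTTgtgggcgggatt
Tcfl5, bases -21 to -17, chr2:180642696-180642724, minus strand: tttccctcccccAACGGcgcgcccgcggt
Rfx2, bases -118 to -114, chr17:56831110-56831138, minus strand: gcagcttggtaaCCGTTgccgggcgcaac
Rfx2, bases -116 to -111, chr17:56831107-56831136, minus strand: agcttggtaaccGTTGCCgggcgcaacgcc
Sox30, bases -38 to -34, chr11:45980260-45980288, plus strand: aggccgccaacaAACGGctgagctcacaa
Brdt, bases -78 to -73, chr5:107331104-107331133, plus strand: cgcaggcacagtCACGTGgcagaccctggc
The MYB core occurred in 3 of the 4 promoters, 3 times each in Tcfl5 and Rfx2 and 1 time in Sox30, while the Brdt window held none. It occurs in 17.4% of all 32851 RefSeq promoters of this length, and in 22.3% of the 6218 that are at least as rich in G and C (64.7%) as the member promoter with the least. At least 3 matches were found in 0.265% of all promoters and in 0.515% of the GC-rich ones. The number 3 is the count seen in Tcfl5 and Rfx2 themselves, so these shares are a description and no test. Not printed are the Rfx2 matches at bases -175 to -171 and -151 to -147, which lie in similar sequence. The RFX match of Rfx2 overlaps one of its MYB matches, as the Rfx2 windows show, and GTTGCC occurs in 12.5% of all promoters and 11.5% of the GC-rich ones. The match printed for Brdt is an E-box, spelled CACGTG and of the kind that basic helix-loop-helix factors bind, which occurs in 7.15% of all promoters and 10.9% of the GC-rich ones. The cAMP response element in full, TGACGTCA, had no match in the 4 promoters and occurs in 1.79% of all and 2.98% of the GC-rich ones. Its core alone, searched as TGACG, was in the Rfx2 promoter at bases -224 to -220 and occurs in 20.8% of all and 32.4% of the GC-rich ones. A SOX motif in the form AACAAT had no match in the 4 promoters and occurs in 10.7% of all but 1.91% of the GC-rich ones. A match is a run of letters, and no binding was measured.

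Family members of the regulators were spread more widely, though most were at lower levels than any of the 6. All relatives past 1.5-fold were below the 6 in level in both libraries. Among these, Sox13 had 5.03 CPM in Alkbh1-/- and 8.85 CPM in WT, and Atf1 had 121 and 79.4 CPM. In WT the lowest of the 6 was Sox30, at 127 CPM. The relatives above that level were Brd2, Brd3, Rfx4 and Rfx8, with ratios of 0.829, 0.976, 1.20 and 0.862. The wider spread is therefore not separated from level. Past 1.5-fold were 16.8% of all measured genes and 12.8% of those with at least 20 CPM. Of 31 relatives, 28 were in the table and 18 were measured. At 1.5-fold, 5 of the 18 were higher in Alkbh1-/- and 4 were lower, against 8.06% and 8.79% of all measured genes. The median log2 ratio of the 18 was 0.02. The other 10 had between 0 and 38 counts per library, at most 4.67 CPM, among them Myb with 4 counts in both libraries.

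Mybl2, which encodes B-MYB, a factor of dividing cells, had 185 counts (17.9 CPM) in Alkbh1-/- and 79 counts (9.71 CPM) in WT, a ratio of 1.84 (1.41 to 2.43). Mybl2 reads per Mybl1 read were 1.95-fold higher in Alkbh1-/- (1.47 to 2.61). Of the BET genes that are broadly expressed, Brd2 had a ratio of 0.829 (0.772 to 0.890) and Brd3 of 0.976 (0.923 to 1.03). Against Brdt, the interval was below 1 for Brd2 (0.820, 0.752 to 0.893) and held 1 for Brd3 (0.965, 0.896 to 1.04). Of the factors closest to CREM, Creb1 had 343 counts (33.2 CPM) in Alkbh1-/- and 264 (32.4 CPM) in WT. Atf1 had 1250 counts (121 CPM) in Alkbh1-/- and 646 (79.4 CPM) in WT, a ratio of 1.52 (1.38 to 1.68).

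Within the RFX family of winged-helix proteins, some of which act on ciliary genes, Rfx1 and Rfx3 stood farther from WT than Rfx2. Rfx3 had 305 counts (29.5 CPM) in Alkbh1-/- and 119 (14.6 CPM) in WT, a ratio of 2.02 (1.63 to 2.51). Rfx1 had 985 counts (95.3 CPM) in Alkbh1-/- and 450 (55.3 CPM) in WT, a ratio of 1.72 (1.54 to 1.93). Per Rfx2 read, Rfx3 was 1.97-fold higher (1.58 to 2.46), Rfx1 1.68-fold higher (1.49 to 1.89) and Rfx4 1.17-fold higher (1.08 to 1.27) in Alkbh1-/-. For Rfx8 the same measure was below 1 (0.841, 0.771 to 0.919), and for Rfx5 and Rfx7 the interval held 1.

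Values of the SOX family lay on both sides of WT. Sox5, which has a testis form in spermatids, had 1058 counts (102 CPM) in Alkbh1-/- and 419 (51.5 CPM) in WT, a ratio of 1.99 (1.77 to 2.23). Sox6 had a ratio of 1.12 (1.03 to 1.22), beside 1.13 for Sox30, and Sox6 per Sox30 was 0.990 (0.881 to 1.11). Sox9, the Sertoli cell factor, had 139 counts (13.4 CPM) in Alkbh1-/- and 383 (47.1 CPM) in WT, a ratio of 0.286 (0.233 to 0.348). Sox4 (0.361), Sox13 (0.568) and Sox12 (0.645) also had intervals below 1, and that of Sox17 (0.840, 0.701 to 1.01) held 1. The Sertoli cell markers were also lower, with a median log2 ratio of -1.06. Of 16 measured markers, 14 were at least 1.5-fold lower and 0 higher, against 8.79% and 8.06% of all measured genes. The summed level of the 17 Sertoli markers in the table, Sox9 included, was 1797 CPM in Alkbh1-/- and 3523 CPM in WT. The part of Sertoli cells in the SOX values was not tested, and fewer cells of a type cannot be told apart from less RNA per cell.

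**Figure D4:**
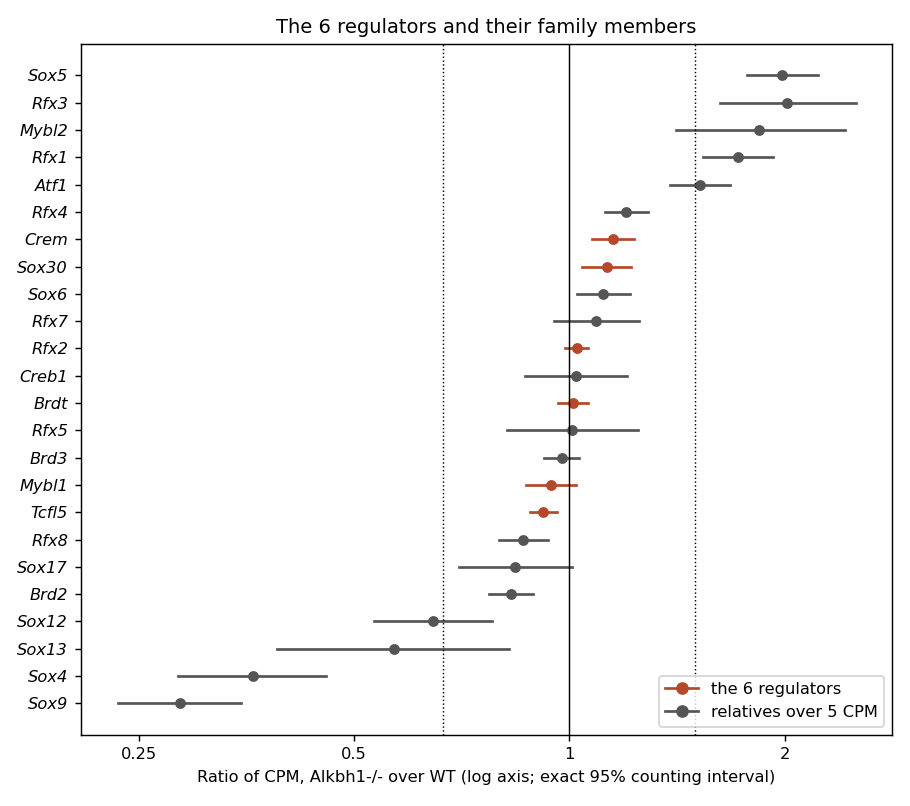
Ratio of CPM, Alkbh1-/- over WT, on a log axis with exact 95% counting intervals, for the 6 regulators and their 18 measured relatives; dotted lines mark 1.5-fold in both directions. The 6 regulators lie between 0.920 and 1.15, while relatives reach from Sox9 at 0.286 to Rfx3 at 2.02.

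Lists of genes linked to the regulators, by A-MYB at promoters, need for Crem, class or stage, were described next. The lists were chosen with earlier results of these data known. Among 11 piRNA pathway genes that carry A-MYB at their promoters in mouse testis, 1 was at least 1.5-fold higher and 0 lower, with a median log2 ratio of 0.15. With 8.06% of all measured genes higher and 8.79% lower by this measure, 1 of 11 is near the background. Mov10l1, the RNA helicase that starts piRNA processing, was at 0.63 and Tdrd9, another helicase, at 0.32. Tdrd6 (-0.21), a scaffold of the chromatoid body, and Mael (-0.13) were the lowest. Mybl1, at -0.08, lay between these. Piwil1, the PIWI protein of pachytene cells, had 1217 CPM in Alkbh1-/- and 1151 CPM in WT.

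Of 8 spermatid genes that need Crem in the mouse, 5 were at least 1.5-fold higher and 0 lower, against 8.06% and 8.79% of all measured genes, with a median log2 ratio of 0.65. Odf1, a protein of the sperm tail's outer dense fibres, had 199 CPM in Alkbh1-/- and 113 CPM in WT (log2 0.81). Prm2, a protamine, had 413 CPM in Alkbh1-/- and 252 CPM in WT (0.71). The transition proteins Tnp1 (-0.35) and Tnp2 (-0.14), which precede protamines on DNA, lay on the other side. Crem itself was at 0.20.

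Cilium and axoneme genes, a class that some RFX factors act on, had a median log2 ratio of 0.13, beside 0.04 for Rfx2. Of 20 measured, 2 were at least 1.5-fold higher, near the 8.06% of all measured genes, and 0 were lower, against 8.79%. Spag6, of the axoneme's central apparatus, was at 0.93 and Foxj1, a ciliary transcription factor, at 0.77. The intraflagellar transport genes Ift140 (-0.08) and Ift80 (-0.07) were the lowest. Of the testis histone genes, only H1fnt was measured (60.5 CPM in Alkbh1-/- and 51.1 CPM in WT). The libraries were selected for polyadenylated RNA, and Hist1h1t, Hist1h2aa and Hist1h2ba had between 14 and 31 counts.

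Round spermatid genes, of the stage that needs SOX30, had a median log2 ratio of 0.69. Of 18 measured, 10 were at least 1.5-fold higher and 0 lower, against 8.06% and 8.79% of all measured genes. All 18 were above 0, as were 5837 of the 12189 measured genes. Catsper3 (1.23) and Catsper4 (1.21), subunits of the sperm calcium channel, were the highest. Odf2 (0.06), which is also used at centrosomes, and Actl7b (0.18) were the lowest. The summed level of the 18 was 4462 CPM in Alkbh1-/- and 3805 CPM in WT, a ratio of 1.17. Odf2 alone made up 2306 CPM of the sum in Alkbh1-/- and 2208 CPM in WT. Its own ratio was 1.04, so its weight held the summed ratio nearer to 1. For 10 elongating spermatid markers, of which 6 are also in the Crem list, the sum was 2109 CPM in Alkbh1-/- and 1675 CPM in WT. Of these, 4 were at least 1.5-fold higher and 0 lower, beside the same background. Their log2 ratios were above 0 for 7 and below 0 for 3. No marker of either list was at 0. Whether the preparations differed in their share of spermatids, and whether that bears on the Crem and Sox30 values, was not tested.

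Other transcription regulators of the germ line showed both directions. Of 23 measured, 4 were at least 1.5-fold higher and 1 lower, against 8.06% and 8.79% of all measured genes, with a median log2 ratio of -0.03. Gm4969, now named Meiosin, which with Stra8 starts meiosis, had 66 counts in Alkbh1-/- and 15 in WT (log2 1.38). Taf7l, a germ cell subunit of the general transcription machinery, was at 0.71. Etv5 (-0.98), a factor of spermatogonia that Sertoli cells also express, and Dmrt1 (-0.39), which is also shared by both cell types, were the lowest.

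Of 10 markers of pachytene spermatocytes, 9 were in the table and 8 were measured. None was past 1.5-fold, and the median log2 ratio was -0.10. A ratio between the libraries does not show how pure the cells of either one were. Ldhc, the germ cell lactate dehydrogenase, had 4234 CPM in Alkbh1-/- and 4918 CPM in WT (-0.22). Ccna1, the meiotic cyclin A, was at -0.24, Sycp1 of the synaptonemal complex at 0.05 and Piwil1 at 0.08. Hist1h1t was below the floor. Meiotic prophase genes had 24 measured members, with 7 past 1.5-fold upward and 0 downward, against 8.06% and 8.79% of all measured genes, and a median of 0.36. Dmc1, the meiotic recombinase, was at 1.00 with 97 counts in Alkbh1-/- and 34 in WT, and the cohesin Rec8 was at 0.75. Syce1 (-0.10) and Mlh3 (-0.13) were the lowest.

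Markers of other cells were present in both libraries. Leydig cell markers had 5 of 7 measured genes at least 1.5-fold higher and 1 lower, against 8.06% and 8.79% of all measured genes. Their summed level was 171 CPM in Alkbh1-/- and 125 CPM in WT. Hsd3b6 (1.28) and Cyp17a1 (1.11), enzymes of steroid synthesis, were the highest, Hsd3b1 was at 0.55 and Nr5a1 (-1.12) the lowest. Among Sertoli markers Sox9 (-1.73) and Aard (-1.39) were the lowest, and Fshr (-0.42) and Tjp1 (0.07) the highest. Spermatogonia markers summed to 134 CPM in Alkbh1-/- and 159 CPM in WT. Of the 7 measured, 2 were at least 1.5-fold higher and 1 lower, against 8.06% and 8.79% of all measured genes. The 7 included Kit (1.02), Stra8 (0.68), Uchl1 (-0.54) and Itga6 (-1.11). Peritubular myoid markers summed to 45.4 CPM in Alkbh1-/- and 60.2 CPM in WT, with Acta2 at 1.05, Myh11 at 0.87, Tagln at 0.53 and Myl9 at -1.16. Blood and endothelial markers summed to 13.3 CPM in Alkbh1-/- and 16.0 CPM in WT. Cdh5 (-0.75) was the measured one, and Hba-a1 had 1 count in Alkbh1-/- and 0 in WT.

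**Figure D5:**
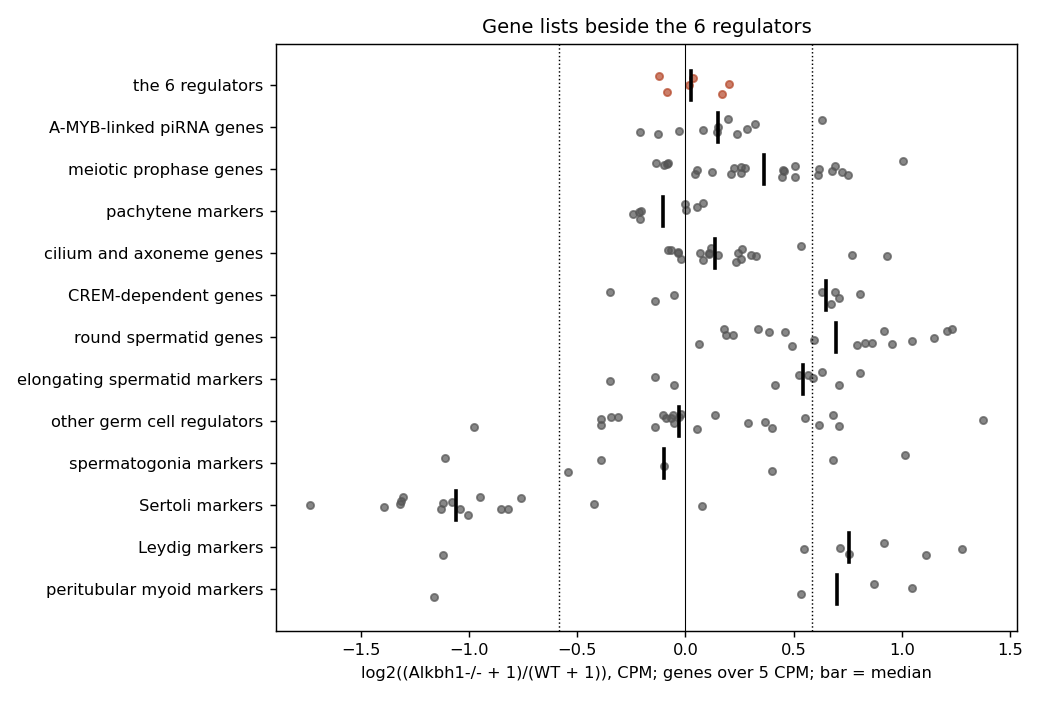
Log2 ratio of CPM plus 1, Alkbh1-/- over WT, for the measured genes of each list (points, spread vertically at random) with the list median (bar) and dotted lines at 1.5-fold. The 6 regulators span -0.12 to 0.20, while round spermatid genes centre on 0.69 and Sertoli markers on -1.06.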

How the data were processed

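The authors deposited 1 mRNA table of raw read counts, whole numbers per Ensembl gene, with a column for Alkbh1-/- and a column for WT, per the file headers. Per the submitters' processing notes CASAVA 1.3, Novoalign, TopHat, bedtools and mm9 were used, without their roles, and neither the counting tool nor its strand setting is stated in the labels or headers. Of 21310 identifiers, 19848 (93.1%) matched a symbol. Counts were scaled by TMM in edgeR 4.0.16 (R 4.3.3), with DESeq2 1.42.0 size factors among the alternatives. Ratios, intervals and list summaries were computed in Python 3.11.15 with scipy 1.17.1, after tests on simulated data. No differential test was possible with 1 library per genotype.

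The regulators and gene lists were chosen with earlier results of these data known. Named were the 6 regulators, Alkbh1, measured relatives, and in each other list the 2 highest and 2 lowest measured genes. Others were added for context after their values were seen: Piwil1 in its piRNA list, the histone genes below the floor and Hba-a1. Mtl5 was matched as Tesmin. Motifs and promoters came from RefSeq tables on GRCm38.p6. One relative is not reported here.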

Additional observations from a re-analysis of the deposited data

How the results depend on the processing

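Results were recomputed with 4 other scalings, pseudocounts of 0.5 and 5 CPM, and floors of 1, 20 and 0 CPM. No log2 ratio of a regulator moved past 1.5-fold under any scaling or pseudocount: the ranges were -0.17 to -0.05 for Mybl1, -0.21 to -0.09 for Tcfl5, -0.07 to 0.05 for Brdt, 0.12 to 0.23 for Crem, -0.05 to 0.07 for Rfx2 and 0.09 to 0.20 for Sox30. Scaling to the meiotic prophase gene sum gave -0.21 for Tcfl5, -0.071 for Brdt and -0.052 for Rfx2, outside the counting interval around the value reported. That scaling also moved the split of genes past 2-fold, to 158 higher and 452 lower beside 219 and 330 as reported, and past 1.5-fold, to 737 and 1310 beside 982 and 1071. With a pseudocount of 5 CPM the counts were 50 higher and 135 lower at 2-fold and 560 higher at 1.5-fold. A floor of 20 CPM left 80 higher and 200 lower at 2-fold, and 446 and 583 at 1.5-fold, where fewer genes enter. With a floor of 1 CPM 357 were higher at 2-fold and 1625 at 1.5-fold, and with no floor 357 and 1749. List medians moved by more than 0.1 as follows. At a pseudocount of 5 CPM they were 0.58 for Leydig and 0.44 for peritubular myoid markers. At a floor of 20 CPM they were 0.59 for round spermatid genes, 0.26 for meiotic prophase genes and -0.47 for spermatogonia markers. At a floor of 1 CPM they were -0.0020 for pachytene and 0.087 for spermatogonia markers, and with no floor -0.0020 for pachytene and 0.35 for peritubular myoid markers. The cause was not tested beyond the genes each floor adds or removes. In all, 165 of the other values kept their direction or stayed within these limits. No paired analysis was possible because each genotype has 1 mRNA library. For the same reason no library could be left out.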
